A study of Homo sapiens with 4 samples.

Results

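The genes described here are 10 factors of the response to low oxygen, chosen by their symbols: HIF1A, EPAS1, ARNT, CITED2, VEGFA, ADM, EGLN1, EGLN3, BNIP3 and ANKRD37. Of these, 9 were found among the 13957 genes of the deposited table, and ANKRD37 had no row among the genes analysed here. MDA-MB-231 Fluc cells gave the 4 samples behind this table, 2 of them exposed to 50 μM cordycepin and 2 to the vehicle DMSO, all for 2 h. The parent line was derived from triple-negative breast cancer, and the Fluc derivative has a luciferase gene inserted, so every sample shares this reporter and comes from 1 line. Cordycepin is 3′ deoxyadenosine, an adenosine analogue whose triphosphate is known to inhibit polyadenylation. The values are the authors' mean expression of each gene over the libraries of the comparison, as log2 CPM (counts scaled to library size), so treated and vehicle cells are mixed in each value. No value per library was available in the columns used, so no SD is given, neither the differences between genes nor an effect of cordycepin was tested, and the depth of each library is unknown.

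Cells sense oxygen through the hypoxia inducible factors (HIFs), which are pairs of an oxygen-regulated alpha subunit (HIF1A or EPAS1) and a stable partner (ARNT). When oxygen is plentiful, prolyl hydroxylases of the EGLN family mark the alpha subunit, VHL then binds it and it is degraded. When oxygen is scarce, the pair accumulates, binds DNA with the coactivators EP300 and CREBBP and raises genes of blood vessel growth, glycolysis and mitochondrial turnover. Because the alpha subunits are controlled largely as proteins, the mRNA of HIF1A does not measure HIF activity.

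The labelled cell line was first checked against marker genes. All 6 genes typical of MDA-MB-231 were among the highly expressed genes, with AXL at 11.01, CD44 at 10.57, VIM at 10.45, CAV1 at 10.25, MSN at 9.68 and EGFR at 8.64 on the log2 CPM scale. The receptor genes ESR1 and PGR had no row among the genes analysed here, and neither did any of 5 markers of blood, endothelial, fibroblast and liver cells. ESR1 and PGR belonged to a list of 7 genes expected to be low or absent in this line, of which the other 5 had a row. Of these, ERBB2 was at 6.49, above the upper quartile of all genes (6.05), GATA3 at 4.48, EPCAM and CDH1 both at 3.68 and FOXA1 at 2.34.

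The 9 genes covered a wide range of mean expression, from 2.67 for EGLN3 to 8.59 for HIF1A on the log2 CPM scale, a distance of 5.92. Their median was 5.24, compared with 4.58 for all genes of the table, and the median of their ranks stood above 61.1% of all genes. Of the 9 genes, 6 lay above the median of all genes, 3 of them (HIF1A, VEGFA and BNIP3) above the upper quartile of 6.05, and 1 (EGLN3) lay below the lower quartile of 2.88. As the table lists genes down to a mean of 0.56, EGLN3 was well above its lower end.

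**Figure D1:**
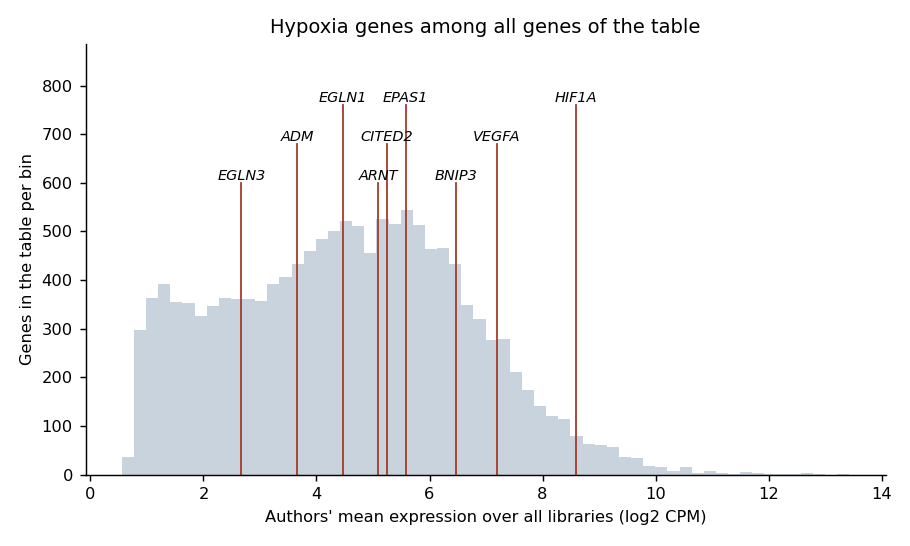
Histogram of the authors' mean expression (log2 CPM, horizontal axis) of all 13957 genes, with the number of genes per bin on the vertical axis and a red line for each of the 9 hypoxia genes (line heights only separate the names). HIF1A stands at 8.59 in the upper tail, while EGLN3, at 2.67, is below the lower quartile.

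Mean expression in CPM grows with the length of a gene, so genes were compared with each other per kilobase. The length listed in the table was used, which for 8 of the 9 genes equals the joined exons of all transcripts in GENCODE. This length is much greater than that of a single mRNA where a gene has many transcripts. The canonical transcript made up 92.9% of the listed length for CITED2 but 25.01% for VEGFA, and the level per kilobase was therefore also calculated with the canonical transcript.

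HIF1A (chromosome 14, 61695513 to 61748259, plus strand, GRCh38), which encodes the alpha subunit HIF-1α, had the highest mean expression of the 9 genes. Its 8.59 on the log2 CPM scale is above 97.2% of all genes, and its level per kilobase was 6.23, above 95.3% of them. EPAS1 (chromosome 2, 46293667 to 46386697, plus strand) encodes the other main alpha subunit and was at 5.58 log2 CPM and 2.71 per kilobase. The level per kilobase of HIF1A was 11.4 times that of EPAS1 with listed lengths and 10.6 times with canonical transcripts. ARNT (chromosome 1, 150809713 to 150876708, minus strand), the common partner of both, was at 5.09 log2 CPM and 2.40 per kilobase. HIF1A mRNA was thus 14.2 times as abundant per kilobase as ARNT mRNA, and EPAS1 was 1.24 times as abundant as ARNT. The related partner gene ARNT2, at 2.96 per kilobase, stood 1.47 times above ARNT, and the third alpha subunit gene, HIF3A, had no row among the genes analysed here. The antisense gene HIF1A-AS3 overlaps HIF1A on the opposite strand and had a mean of 3.43 log2 CPM, 1 of 4 annotated genes that overlap it. The libraries were stranded, but whether the authors counted reads by strand is not given in the sources used here, so reads of HIF1A and HIF1A-AS3 may not have been told apart.

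The level of HIF alpha protein is controlled in large part by the hydroxylases and the VHL complex. EGLN1 (chromosome 1, 231363751 to 231422287, minus strand), which encodes PHD2, the main oxygen sensor, had a mean of 4.46 log2 CPM and a level of 2.04 per kilobase. EGLN3 (chromosome 14, 33924227 to 34462774, minus strand), which encodes PHD3 and is itself a HIF target in many cells, was the lowest of the 9 genes on both scales, with 2.67 log2 CPM and -0.21 per kilobase. EGLN1 was thus 4.74 times as abundant per kilobase as EGLN3 with listed lengths and 2.16 times with canonical transcripts. EGLN2, the remaining member of the family, was close to EGLN3, at -0.14 per kilobase. The gene model of EGLN3 in the table is 538548 bases long and contains the whole of SPTSSA (34432788 to 34462240) on the same strand. SPTSSA had a mean of 5.86 log2 CPM, above that of EGLN3, and how reads in the shared part were assigned is not given in the sources used here. EGLN1 is overlapped on the same strand by the protein-coding gene ENSG00000287856 (231363797 to 231528603), which had no row among the genes analysed here. Whether the authors' gene models held this gene, and how shared reads were then assigned, is likewise not given. All 9 genes listed for oxygen sensing and turnover were in the table, and 5 of them lay above the median level per kilobase of all genes, which was 2.43. ELOB (6.48) and CUL2 (3.82), which encode parts of the VHL ubiquitin ligase, were the highest of this list with listed lengths, and EGLN3 and EGLN2 were the lowest. RBX1, another part of this ligase, was at 3.80, and with canonical transcripts RBX1 (5.20) and ELOC (4.51) were above CUL2 (4.15). VHL itself was at 3.36, and HIF1AN, which encodes the asparagine hydroxylase that blocks coactivator binding, was at 2.41.

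CITED2 (chromosome 6, 139371807 to 139374648, minus strand) encodes a nuclear protein that competes with HIF alpha subunits for EP300 and CREBBP and so restrains HIF. It had a mean of 5.24 log2 CPM, the median of the 9 genes, but a level of 3.88 per kilobase, the third highest, as its listed length of 2563 bases is short. HIF1A was 5.09 times as abundant as CITED2 per kilobase. CITED2 was in turn 3.37 times as abundant as EP300 (2.13 per kilobase) and 4.15 times as abundant as CREBBP (1.83). With canonical transcripts these ratios were 6.18, 2.73 and 3.11. With listed lengths, CITED2 was the 1 gene of the list of coactivators and inhibitors above the median level per kilobase of all genes. In mean log2 CPM, EP300 (5.68) and CREBBP (5.78) were above CITED2 and above the median of all genes (4.58). CITED1 and CITED4 had no row among the genes analysed here.

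VEGFA (chromosome 6, 43770184 to 43786487, plus strand) encodes the main growth factor of blood vessels and had the second highest mean, 7.19 log2 CPM, above 89.3% of all genes. Per kilobase its place depended on the length used. With the listed 14431 bases its level was 3.34, below CITED2, and with the canonical transcript of 3609 bases it was 5.34, above it. ADM (chromosome 11, 10305073 to 10307397, plus strand) encodes adrenomedullin, a peptide that dilates vessels, and was at 3.66 log2 CPM and 2.45 per kilobase. VEGFA was 1.86 times as abundant as ADM per kilobase with listed lengths and 4.77 times with canonical transcripts. Of the 8 angiogenic ligands listed, 7 were in the table, the exception being PDGFB. With listed lengths the highest per kilobase were VEGFB (5.74) and VEGFC (3.68), and the lowest were ANGPTL4 (0.34) and PGF (-1.16). With canonical transcripts VEGFA (5.34) came second, after VEGFB (5.52) and above VEGFC (3.89). VEGFA stood at 0.189 times the level of VEGFB with listed lengths and at 0.883 times with canonical transcripts. A list of 9 genes for receptors of VEGF and adrenomedullin and for related proteins had 4 in the table. NRP1, a coreceptor for VEGFA, was at 4.69 per kilobase and RAMP1 at 3.81, whereas NRP2 was at 0.55 and KDR, the main signalling receptor for VEGFA, was at -1.10. FLT1, FLT4, CALCRL, RAMP2 and RAMP3 had no row among the genes analysed here.

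BNIP3 (chromosome 10, 131966455 to 131982013, minus strand) encodes a receptor for the removal of mitochondria by autophagy and is a well-known HIF target. It had a mean of 6.47 log2 CPM, above 81.5% of all genes, and the second highest level per kilobase of the 9, at 4.06. This is the 1 gene of the 9 whose listed length, 5325 bases, differs from the joined exons in GENCODE, which are 4050 bases. Its relative BNIP3L was at 4.33 per kilobase, so that BNIP3 stood at 0.827 times BNIP3L with listed lengths, but at 2.38 times with canonical transcripts. The pseudogene BNIP3P1 had a row of its own, with 4.73 log2 CPM and 4.065 per kilobase. How reads that match both BNIP3 and BNIP3P1 were assigned is not given in the sources used here. ANKRD37 (chromosome 4, 185396021 to 185400628, plus strand in GENCODE), a HIF target that encodes an ankyrin repeat protein, is the only one of the 10 with no level given here. The gene UFSP2 on the opposite strand overlaps its 3′ end and had a mean of 3.82 log2 CPM.

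**Figure D2:**
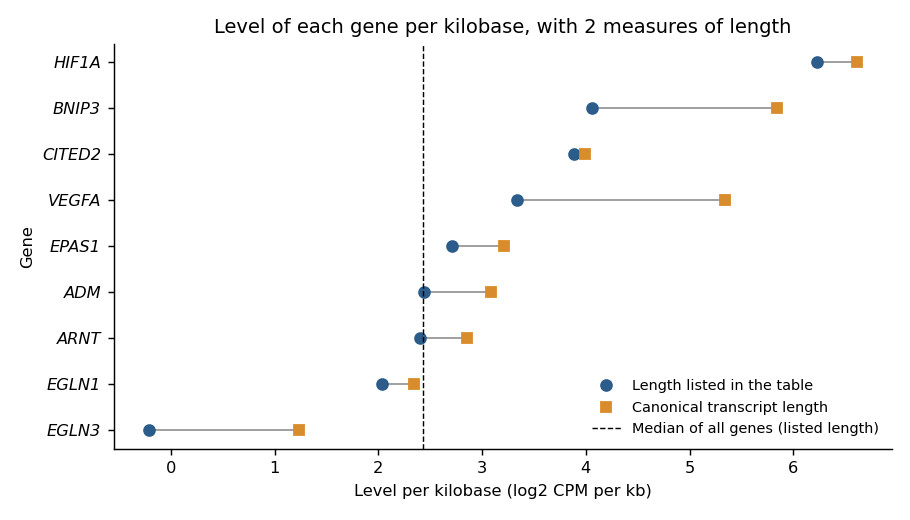
Level per kilobase (log2 CPM per kb, horizontal axis) of each of the 9 genes, with the length listed in the table (blue circles) or the length of the canonical transcript (orange squares), each point a single mean with no error available. HIF1A is first and EGLN3 last with either length, and VEGFA moves from 3.34 to 5.34.

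The targets of HIF were then compared as groups. All 21 genes of the glycolysis list, which also holds transporter genes and PDK1, were in the table. Of them, 17 lay above the median level per kilobase of all genes. With listed lengths the highest were GAPDH (9.32) and ENO1 (9.08), and the lowest were ALDOC (1.14) and the glucose transporter gene SLC2A3 (0.85). With canonical transcripts the highest were ENO1 (10.63) and PKM (10.51) and the lowest was PDK1 (1.32). The median of the glycolysis genes was 5.59 per kilobase with listed lengths, compared with 2.71 for the 9 hypoxia genes, and with canonical transcripts these medians were 6.97 and 3.21. Of 22 other HIF targets, 18 were in the table, with a median of 3.36 per kilobase, and 13 lay above the median level per kilobase of all genes. With listed lengths, TFRC (6.30) and ERO1A (5.10) were the highest of these and MXI1 (0.85) and BHLHE41 (0.04) the lowest. With canonical transcripts BNIP3 (5.84) was above ERO1A (5.65). CA9, EPO and TF, as well as ANKRD37, had no row among the genes analysed here. Many of these genes, glycolysis genes above all, are also expressed when oxygen is plentiful, so their levels do not measure HIF activity.

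**Figure D3:**
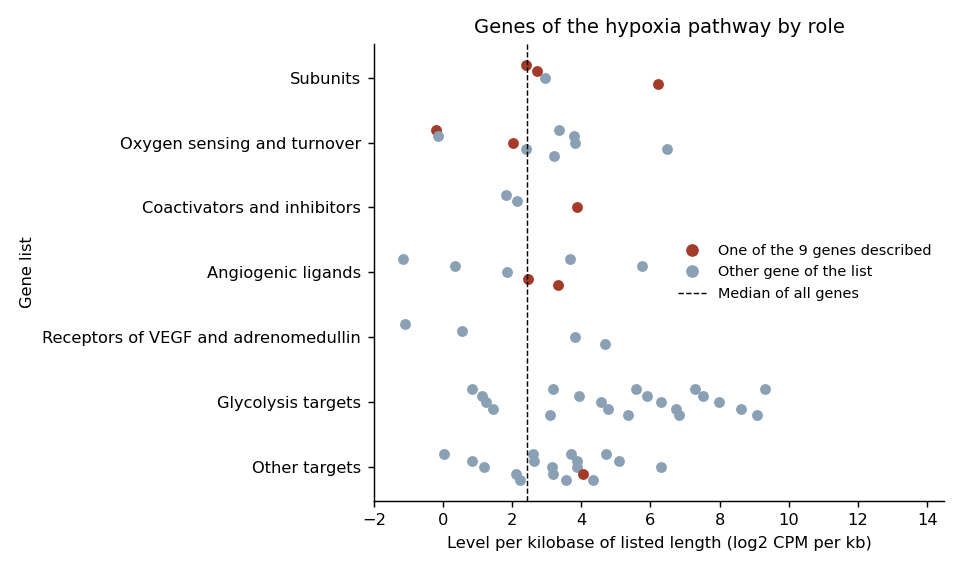
Level per kilobase of listed length (log2 CPM per kb, horizontal axis) of the genes in 7 lists of the pathway, 1 point per gene, with red points for the 9 hypoxia genes and a dashed line at the median of all genes, 2.43. Vertical offsets within a list only separate the points. Of the genes in the glycolysis list, 17 of 21 lie to the right of the line, while EGLN3 and EGLN2 lie near 0.

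HIF pairs bind a short core, ACGTG or GCGTG, in the regions that control their targets. The promoter windows of the genes, from 250 bases before to 50 after each annotated start, were searched for this core on both strands. The set of RefSeq windows used here held 9 of the 10 genes, with 12 windows in all, since HIF1A has 2 starts in it and CITED2 has 3. There was none for VEGFA in this set, so the promoter of VEGFA was not searched. The core was found for 7 of the 9 genes, compared with 52.4% of the 27305 genes with a window in this set. It was not found in the windows of ARNT and EGLN3. The 27305 genes include genes with no row among the genes analysed here, so this background is not limited to genes expressed in these cells. ACGTG was found for 4 of the 9 genes (CITED2, EGLN1, BNIP3 and ANKRD37), compared with 24.9% of the same 27305 genes. With windows that begin 500 bases before the start, 7 of the 9 genes had the core, compared with 67.1% of the same 27305 genes. The word CACGTG reads ACGTG on both strands and was counted once on each.

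The windows that held the core most often were those of BNIP3 and ANKRD37, and their stretches are shown with those of CITED2, ADM and EGLN1, as a repressor, a ligand and a hydroxylase of the pathway. Of CITED2 only the stretch with ACGTG is shown, and its GCGTG matches near the other starts are left out, as are those of HIF1A and EPAS1. Capitals mark the core on either strand, so that GCGTG on the other strand reads CACGC, and each stretch is printed on the strand of the gene, in GRCh38.p14.
BNIP3, chr10:131982013-131982076, minus strand: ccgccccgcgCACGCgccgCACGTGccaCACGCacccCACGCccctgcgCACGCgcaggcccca
ANKRD37, chr4:185396669-185396712, plus strand: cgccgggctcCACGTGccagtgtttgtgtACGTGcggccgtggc
CITED2, chr6:139374786-139374811, minus strand: gcctctgcagCACGTGccgcgggcgg
ADM, chr11:10304962-10304986, plus strand: gcaggagcgcGCGTGgctgaggaaa
EGLN1, chr1:231422286-231422310, minus strand: gccgtggtgtACGTGcagagcgcgc

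The window of BNIP3 held 6 matches, between 143 and 100 bases before the start, and 0.923% of all windows held as many or more. Of these, 4 were GCGTG on the other strand and the remaining pair is the word CACGTG. ANKRD37 had 3 matches, all of them ACGTG. EGLN1 had 1 match just before its start. The window of BNIP3 consisted to 80.7% of G and C, and those of EGLN1 and EPAS1 to 80.0%, while the second start of HIF1A lies in a window with 31.7%. The core contains CG, and the shares above were not adjusted for the GC content of the windows. A match to these letters is a description of the window and does not show that HIF binds there.

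**Figure D4:**
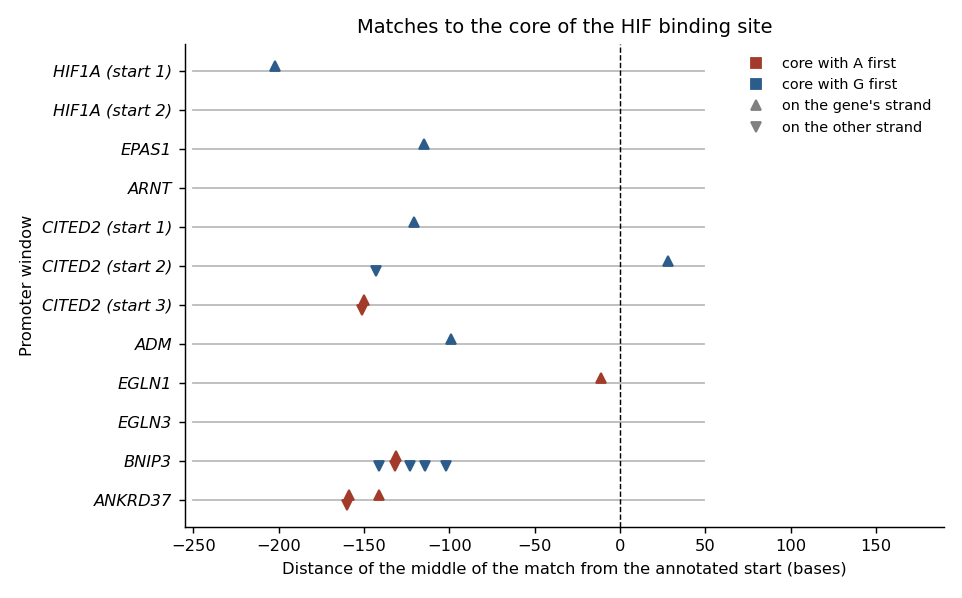
Matches to the core in the 12 promoter windows of 9 genes (1 row per window), by distance from the annotated start in bases (horizontal axis, dashed line at the start). Red and blue mark cores beginning with A and with G, upward and downward triangles mark the strand of the gene and the other strand, and the cluster of 6 matches in BNIP3 lies between 143 and 100 bases before the start.

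As cordycepin triphosphate is an inhibitor of polyadenylation, the 3′ untranslated regions of the canonical transcripts were also described. Their lengths ran from 224 bases for ANKRD37 to 2655 bases for EGLN1, and 5 of the 10 were above the median of 1372 bases over 11579 protein-coding genes of the table. The pentamer ATTTA, the core of the AU-rich elements that proteins such as ZFP36 bind in unstable mRNAs, was found in all 10 regions, compared with 73.9% of all genes. Each of the 10 genes had more ATTTA per kilobase than the median of all genes, which was 1.74. HIF1A had 8 in 1173 bases, or 6.82 per kilobase, a density that 387 of the 11579 genes reached. ANKRD37 had 2 in 224 bases (8.93 per kilobase) and VEGFA had 10 in 1925 bases (5.20 per kilobase), whereas CITED2, with 3 in 1325 bases, had the lowest density of the 10, 2.26 per kilobase. The longer nonamer TTATTTATT was found in HIF1A and VEGFA but in none of the other 8, compared with 9.85% of all genes. Both words hold only A and T, and neither shares nor densities were adjusted for the base composition of the regions. The shares were not adjusted for the length of the regions either. HIF1A carries 2 overlapping copies, and the stretch with both is shown because no other of the 10 genes has a pair. The first copy, from base 271 of the region, is in capitals. The second, from base 275, begins within these capitals and runs on into the lower-case letters.
HIF1A, chr14:61747346-61747374, plus strand, GRCh38: atgcacctttTTATTTATTtatttttggc

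The signal for cleavage and polyadenylation was looked for in the last 50 bases of each canonical transcript. AATAAA, the common form, was present for 4 of the 10 genes (HIF1A, ADM, EGLN3 and BNIP3), compared with 67.1% of all genes. The other 6 had the variant ATTAAA and no AATAAA there, compared with 15.3% of all genes. These were EPAS1, ARNT, CITED2, VEGFA, EGLN1 and ANKRD37. In all 10 the signal began between 20 and 29 bases from the end of the transcript. Whether either feature goes with a response to cordycepin was not tested, and many genes end at more than 1 site, of which the canonical transcript shows 1.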

How the data were processed

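The series comprised 4 RNA-seq samples of 1 cell line, 2 with 50 μM cordycepin and 2 with vehicle. According to the methods of the authors, mapping was to GRCh38.p13 and counting with rsubread, whereas the submitters' processing notes name hg38, TopHat, HTSeq, DESeq and Cufflinks without saying what each was used for. The deposited table gives each gene a listed length and 1 mean expression as log2 CPM, with 0 columns of values per sample. Its fold change, F statistic, p-value and adjusted p-value are the study's own comparison and were not used here, so no treatment effect, spread or test is given, and the depth is unknown. How the authors normalised and filtered the counts is not given in the sources used here.

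The genes and lists were chosen with earlier results of these data known, and the 3′ untranslated regions were examined after the data were seen. All 10 genes of the rule are named, and from each other list of the pathway the 2 highest and the 2 lowest per kilobase of listed length. Some results for single genes of the lists are not reported here. Level per kilobase was log2 CPM less log2 of the length in kb. Lengths, transcripts and overlapping genes came from GENCODE release 44 (GRCh38), in which 13922 gene IDs (99.7%) were found. Promoter windows, 250 bases before to 50 after each start, came from RefSeq (GRCh38.p14), and all 35116 were identical to the genome sequence used. Functions were tested on simulated data. Python 3.11.15, numpy 2.4.6, scipy 1.17.1 and matplotlib 3.10.9 were used.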

Additional observations from a re-analysis of the deposited data

How the results depend on the processing

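No paired analysis was possible because the columns used hold 1 mean per gene and no value per library, and for the same reason no library could be left out. The median percentile of the 9 genes, 61.1 among all genes, was 55.5 among protein-coding genes, 52.05 among genes above the lowest 25% (where 8 of the 9 were left) and 55.2 per kilobase. With canonical transcripts, which are shorter, the level per kilobase was 6.61 for HIF1A, 5.84 for BNIP3, 5.34 for VEGFA, 3.99 for CITED2, 3.21 for EPAS1, 3.09 for ADM, 2.86 for ARNT, 2.35 for EGLN1 and 1.23 for EGLN3. This exchanged the places of CITED2 and VEGFA and left the other 7 in place. With the joined exons of GENCODE, a choice made after the data were seen, BNIP3 was at 4.45 per kilobase and the other 8 genes kept their values. The core was found for 7 genes with windows of either length and for 4 when ACGTG alone was searched. Depth is unknown and no SD exists, so small distances, such as 0.04 between ADM and ARNT per kilobase, cannot be placed against an error.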
